A study of Oryza sativa with 12 samples.

Results

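Rice genes annotated as encoding proteins with an SPX domain, 9 in all, were followed in the shoot apical meristem (SAM) of myb110 mutant and wild-type (WT) plants. They were the genes whose deposited description, in the table of the meristem or in that of the leaf blade, contains the words SPX domain and made up 9 of the 38867 genes of the meristem table. The meristem descriptions gave 8 of them and the blade descriptions 5, with 4 in common. They are SPX1 (Os06g0603600), SPX2 (Os02g0202200), SPX3 (Os10g0392600), SPX4 (Os03g0827500), SPX5 (Os03g0406100), SPX6 (Os07g0614700) and 3 genes for SPX membrane proteins, Os02g0678200, Os06g0129400 and Os09g0521800. Their locus numbers place them on chromosomes 2, 2, 3, 3, 6, 6, 7, 9 and 10 of rice, and none adjoins another. The choice used the descriptions and not the change between the genotypes, but it was made with earlier results of these data known.

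The SPX domain is a pocket that binds inositol pyrophosphates, small signalling molecules whose level follows the phosphate supply of the cell. Short soluble SPX proteins that have bound them attach to PHR2, the MYB factor that turns on phosphate starvation genes, and keep it from DNA. When phosphate runs low the complex comes apart, and several of the SPX genes are themselves turned on by PHR2, which closes a feedback loop. In larger proteins the same domain is joined to a membrane transporter or to a ubiquitin ligase part.

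The series covers 12 samples of Oryza sativa, WT and myb110 plants in 2 tissues, with 3 pools for each genotype and tissue. Plants had grown in the field for 1 month after transplanting. Each meristem pool held tissue from 20 plants, and total RNA was enriched for poly(A) mRNA before sequencing. The labels name neither the cultivar nor the kind of myb110 allele. The 6 meristem libraries were analysed, WT and myb110 with n = 3 pools each, so an error is the spread between pools. Blade libraries, and with them the comparison of tissues, were not analysed here because that table's column names do not show which labelled genotype they hold.

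Depth was 14112966 to 18896372 estimated counts per library. Correlations of log CPM (counts scaled to a common library size) were 0.984 to 0.987 within a genotype and 0.942 to 0.949 between genotypes. The locus taken here as the mutated gene, Os10g0478300, which the table names MYB4, had 6, 0 and 1 counts in WT and 0 in each myb110 library, too few to check the labels. Knotted-1-like homeobox genes, a family in which only some members mark meristem, summed to 544 to 556 CPM in WT and 542 to 569 CPM in myb110. Of their 9 genes, 7 were tested, and 28.6% of those had an edgeR adjusted p below 0.05, beside 22.6% of all tested genes. HOS59 rose by 0.35 ± 0.11 on the log2 scale (edgeR adjusted p = 0.0183) and OSH1 fell by 0.09 ± 0.03 (edgeR adjusted p = 0.0337). The HOS59 call was lost with DESeq2 and without WT replicate 1, myb110 replicate 1 or myb110 replicate 2 (adjusted p up to 0.134). The OSH1 call was lost with DESeq2, with limma on FPKM and without WT replicate 2, WT replicate 3, myb110 replicate 2 or myb110 replicate 3 (up to 0.228). Genes for chlorophyll a-b binding proteins, which mark green leaf tissue, summed to 789 to 857 CPM in WT and 271 to 285 CPM in myb110. Of these 14 genes 11 fell and 0 rose, which is 78.6% called beside 22.6% of all tested genes. CAB2R fell by 2.18 and CAB1R by 1.58 on the log2 scale (edgeR adjusted p = 8.73e-29 and 8.79e-25). None of these 23 listed genes was at 0 in all libraries. Fewer cells of a type and less RNA per cell cannot be told apart in such pools, and the part of a different leaf content in the results that follow was not tested.

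Within the 9 genes, most of the summed level in the meristem came from 4. On the length-scaled FPKM scale (fragments per kilobase of gene length and per depth of library), the WT order was SPX1, SPX2, SPX4, Os06g0129400, SPX6, SPX3, Os02g0678200, SPX5 and Os09g0521800. WT means were 14.5 ± 0.744 FPKM for SPX1, 10.7 ± 0.606 for SPX2, 9.21 ± 0.228 for SPX4 and 8.60 ± 0.546 for Os06g0129400 (SD, n = 3). Below them stood SPX6 at 5.95 ± 0.274 FPKM and SPX3 at 3.16 ± 0.341, and the last 3 genes were each under 0.5 FPKM. Among neighbours in this order, the library ranges of SPX4 and Os06g0129400 overlapped, as did those of Os02g0678200 and SPX5.

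The order was nearly the same in myb110, with an exchange near the bottom: SPX5, at 1.14 ± 0.215 FPKM, stood above Os02g0678200, at 0.272 ± 0.0622 FPKM. Only Os06g0129400, at 7.35 ± 0.891 FPKM, and SPX6, at 6.41 ± 0.361, had overlapping ranges there among neighbouring genes. No test was made between genes, because their levels rest on the authors' gene lengths.

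**Figure D1:**
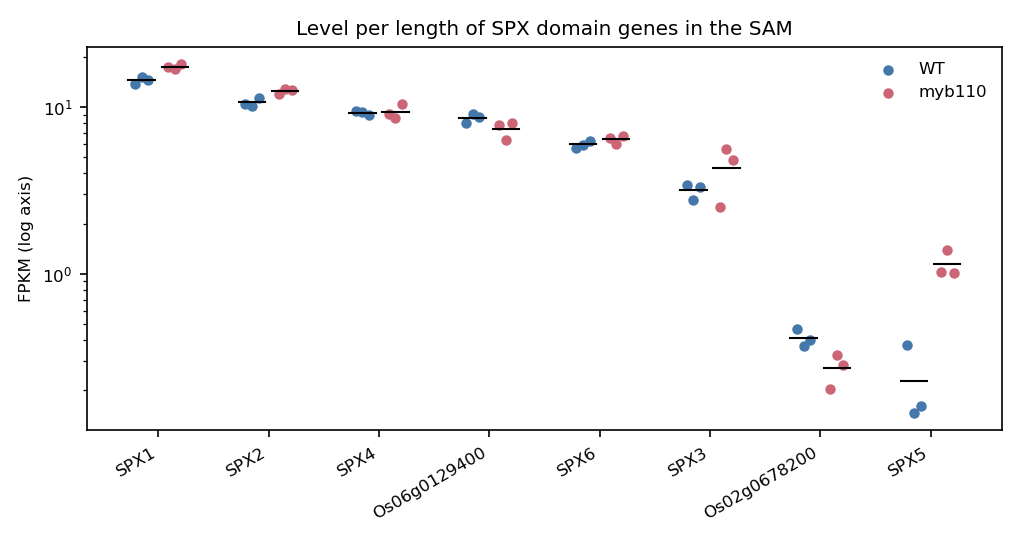
Level of 8 of the 9 SPX domain genes in FPKM (log axis), one point per meristem library, WT and myb110 with n = 3 pools each. SPX1 and SPX2 are the highest in both genotypes, and SPX5, at 0.228 FPKM on average in WT, is the gene whose points of the genotypes lie farthest apart; Os09g0521800, listed at 0 in several libraries, is left out.

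Against WT, 2 of the 8 testable SPX genes rose in the myb110 meristem, SPX1 and SPX5, and 0 fell. Their share, 25.0%, was close to the 22.6% of all 23167 tested genes that passed the same threshold, an adjusted p below 0.05 in edgeR's quasi-likelihood test. A rise was called for 10.9% and a fall for 11.7% of all tested genes. The share of all tested genes called was 16.8% with DESeq2, 22.5% with upper-quartile factors, 18.0% without the filter, 21.5% with a replicate block and 17.8% with limma on FPKM. The median log2 change of the 8 genes was 0.17, and that of all tested genes was 0.00. For 5 of the 8 the CPM ranges of the genotypes did not overlap, which was so for 36.1% of all tested genes. At an unadjusted p below 0.05 there were 4 of the 8, SPX1, SPX2, SPX5 and Os06g0129400, beside 7621 of the 23167 tested genes.

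**Figure D2:**
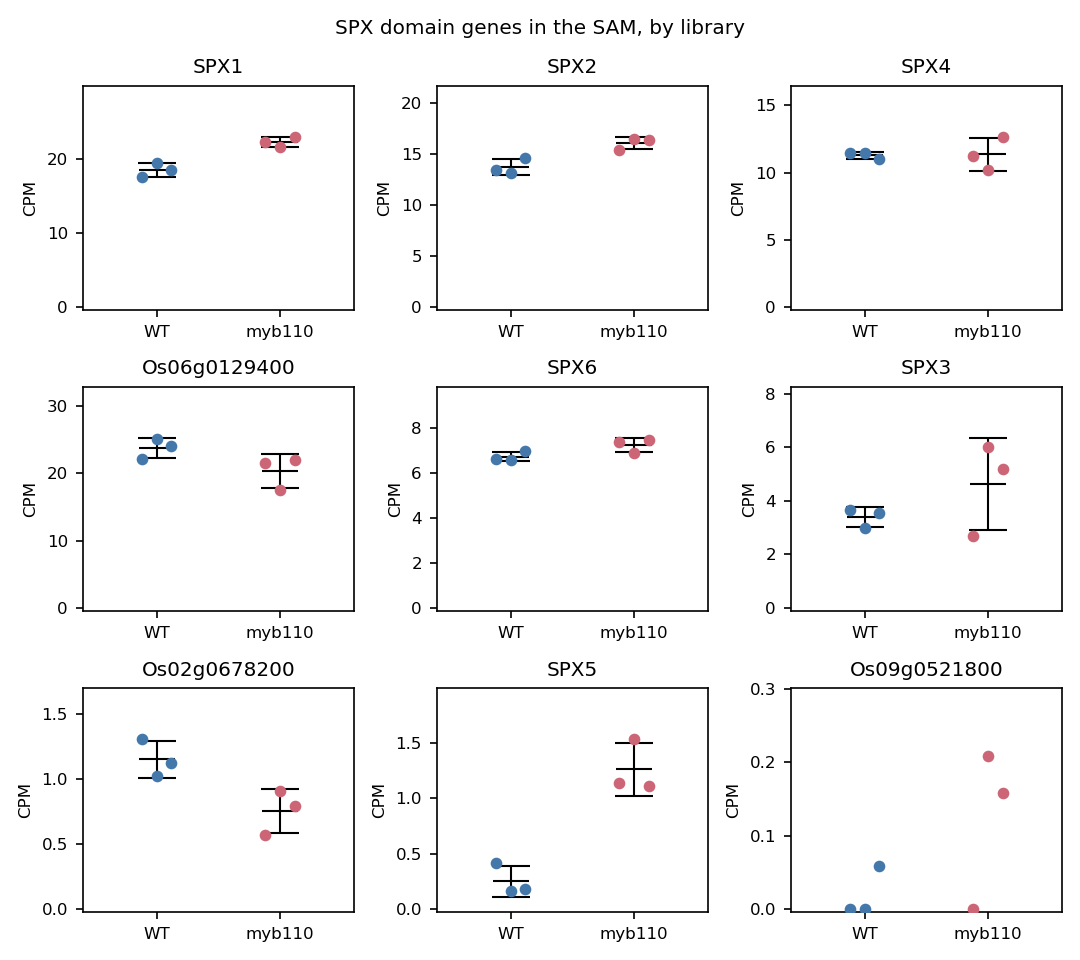
CPM of each of the 9 SPX domain genes by meristem library; points are libraries, and the bar gives mean ± SD of 3 pools except for Os09g0521800, which has 1 WT and 6 myb110 counts in all. SPX5 moves from 0.251 to 1.26 CPM on average, whereas the SPX4 points of the genotypes lie among each other.

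SPX1 and SPX2 are nuclear proteins that hold PHR2 off its target promoters when phosphate is ample. SPX1 had 17.5, 19.4 and 18.5 CPM in the WT libraries and 22.3, 21.5 and 22.9 CPM in the myb110 libraries. Every myb110 library lay above every WT library. SPX1 rose 1.20-fold, a log2 change of 0.27 ± 0.09 (SE; 95% interval of the fold 1.06 to 1.36, edgeR adjusted p = 0.0236). That call was lost with DESeq2 (adjusted p = 0.0699) and without WT replicate 1 (0.0859), WT replicate 3 (0.0509), myb110 replicate 1 (0.0555) or myb110 replicate 3 (0.0936), all with the same direction.

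SPX2 had 13.4, 13.1 and 14.6 CPM in WT and 15.4, 16.5 and 16.4 CPM in myb110. The genotypes did not overlap here either. The difference, a log2 change of 0.23 ± 0.10 (95% interval of the fold 1.02 to 1.35), did not pass adjustment over all genes (edgeR unadjusted p = 0.0303, adjusted p = 0.105), and the adjusted p was 0.0799 to 0.259 under the alternatives. The ratio of SPX1 to SPX2 in FPKM overlapped between the genotypes. Together, SPX1 and SPX2 made up 47.7 ± 0.684% of the summed FPKM of the 9 genes in WT and 50.9 ± 1.28% in myb110, again without overlap.

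SPX3 and SPX5 are close paralogues that rice induces strongly in phosphate starvation, and both act as negative regulators of the starvation response. In these pools SPX5 was called and SPX3 was not, and no test was made between them. SPX5 had 6, 3 and 3 counts in the WT libraries and 16, 22 and 21 in the myb110 libraries. That is 0.414, 0.162 and 0.177 CPM in WT against 1.14, 1.53 and 1.11 CPM in myb110. All myb110 values were above all WT values, and the pooled counts were 12 and 59. SPX5 rose 5.05-fold, a log2 change of 2.34 ± 0.52 (95% interval of the fold 2.42 to 10.5, edgeR adjusted p = 0.000882). From the pooled counts and depths alone the ratio was 5.19, with an exact 95% interval of 2.76 to 10.6 that covers counting error only.

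The call of SPX5 held in all 11 alternatives run, with adjusted p from 0.000906 to 0.0145. No WT library reached the filter value of 0.636 CPM, so SPX5 entered the test only through the genotype in which it was higher. The alternatives shared this filter, except for the fit without it, where the edgeR adjusted p was 0.00118. Holding in the rest is therefore not support free of that selection. Even in myb110 its level was low: SPX5 supplied 1.95% of the summed SPX FPKM there and 0.435% in WT.

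SPX3 had 3.65, 2.97 and 3.54 CPM in WT and 2.70, 6.00 and 5.19 CPM in myb110. The myb110 libraries of replicates 2 and 3 were above all of WT, and that of replicate 1 was below all of WT. The log2 change of 0.46 ± 0.23 did not pass (95% interval of the fold 0.997 to 1.90, edgeR adjusted p = 0.156). Without myb110 replicate 1 it was 0.72 with an adjusted p of 0.0143, and without myb110 replicate 2 it was 0.25 with an adjusted p of 0.552, so single libraries decided its size and its call. The ratio of SPX5 to SPX3 in FPKM was 0.110, 0.0531 and 0.0487 in WT and 0.410, 0.249 and 0.208 in myb110, with no overlap. It rests on the few WT counts of SPX5, restates the SPX5 difference and is no separate support for it.

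SPX4 and SPX6 are the other 2 soluble members. SPX4 keeps PHR2 in the cytoplasm and is broken down when phosphate is scarce, and it also binds a factor of the nitrate response. SPX4 had 11.4, 11.5 and 11.0 CPM in WT and 11.2, 10.2 and 12.7 CPM in myb110. The myb110 values enclosed those of WT. The log2 change was 0.02 ± 0.12 (95% interval of the fold 0.857 to 1.19, edgeR adjusted p = 0.948). For SPX4, these 3 pools per genotype do not tell a change within that interval from none.

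SPX6 is another inhibitor of PHR2. Its level was 6.62, 6.59 and 6.97 CPM in WT and 7.39, 6.90 and 7.47 CPM in myb110. The ranges overlapped through a single pair of libraries, and the log2 change of 0.11 ± 0.15 did not pass (95% interval of the fold 0.877 to 1.33, edgeR adjusted p = 0.658). It was the only soluble member with estimated counts that were not whole in the deposited table.

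SPX4, picked because its log2 change in these libraries was nearest to 0, served as a scale within each library for the rest. The ratios therefore restate the differences above and are no separate support for them. SPX1 per SPX4 in FPKM was 1.46, 1.63 and 1.62 in WT and 1.93, 1.98 and 1.73 in myb110. SPX5 per SPX4 was 0.0400, 0.0158 and 0.0180 in WT and 0.114, 0.163 and 0.0970 in myb110. Neither ratio overlapped between the genotypes. The ratios of SPX2, SPX3 and SPX6 to SPX4 all overlapped.

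The 3 genes for membrane proteins pair an SPX domain with a transporter part of the major facilitator superfamily (MFS), and proteins of this kind move phosphate across the vacuole membrane in rice. The blade table describes Os06g0129400 and Os02g0678200 as SPX-MFS proteins. Os06g0129400 had 22.1, 25.1 and 24.0 CPM in WT and 21.5, 17.5 and 22.0 CPM in myb110. The genotypes were separate by a narrow margin, with the highest myb110 library just under the lowest of WT. Its log2 change of -0.22 ± 0.09 did not pass (95% interval of the fold 0.754 to 0.975, edgeR adjusted p = 0.0786), except without myb110 replicate 3, where it was -0.29 (adjusted p = 0.0496). Without myb110 replicate 2 it was -0.13 (edgeR adjusted p = 0.409).

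Os02g0678200 had 19, 19 and 19 counts in WT and 8, 13 and 15 counts in myb110. The CPM of the genotypes did not overlap, at 1.15 ± 0.144 in WT and 0.756 ± 0.172 in myb110 (SD, n = 3). The log2 change of -0.59 ± 0.41 did not pass (95% interval of the fold 0.370 to 1.19, edgeR adjusted p = 0.343). Os09g0521800 had 0, 0 and 1 counts in WT and 0, 3 and 3 in myb110, under the filter for testing. At this depth no difference could be detected for it, with a ratio of 6.34 and an exact 95% interval of 0.769 to 291 for counting error.

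Sums of FPKM were formed for the soluble and for the membrane members as a description, without a test. The 6 soluble genes together had 43.7 ± 0.769 FPKM in WT and 51.1 ± 2.58 FPKM in myb110. The 3 membrane genes had 8.47, 9.44 and 9.14 FPKM in WT and 7.96, 6.76 and 8.34 FPKM in myb110. The libraries of the genotypes did not overlap in either sum, although 4 of the 6 soluble genes and both tested membrane genes did not pass. Os06g0129400, nearly the whole of the membrane sum, made up 16.3% of the summed FPKM of all 9 genes in WT and 12.5% in myb110.

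**Figure D3:**
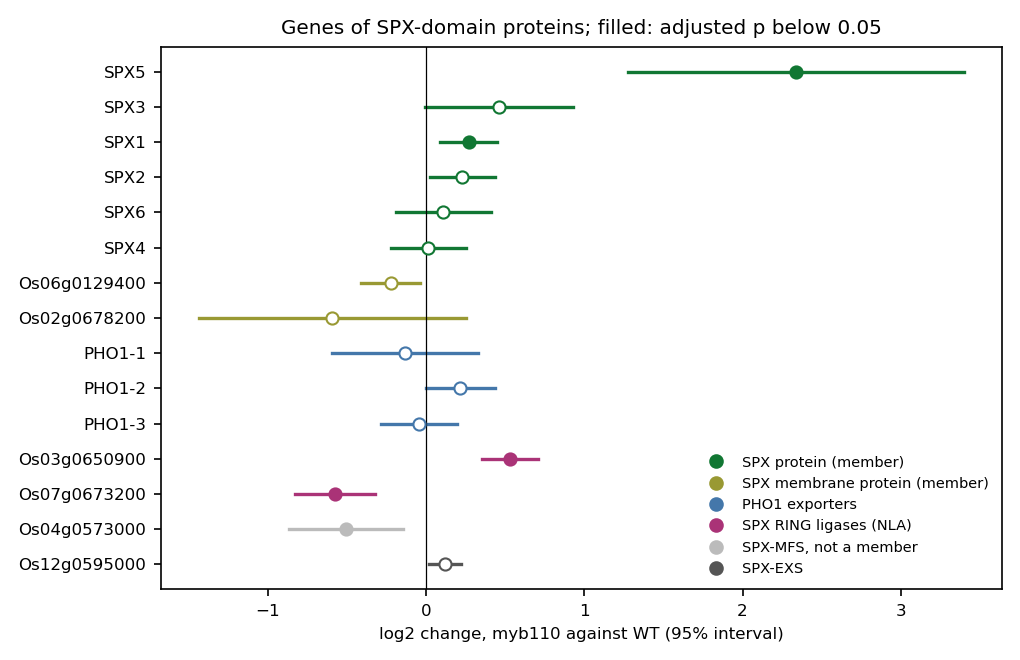
Log2 change of myb110 against WT with its 95% interval for the 8 tested SPX domain genes and for 7 related genes; filled symbols have an edgeR adjusted p below 0.05. SPX5 stands at 2.34, the other SPX domain genes lie between -0.59 and 0.46, and the 2 genes of the NLA type lie on opposite sides of 0.

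Genes for other proteins that carry an SPX domain, with descriptions that do not hold those words, gave no common direction. PHO1 proteins export phosphate from cells, in roots toward the xylem. Of the 3 PHO1 genes 0 passed, beside 22.6% of all tested genes. Their CPM ranges did not overlap for 33.3%, beside 36.1% of all tested genes. PHO1-2 had 12.3 ± 0.166 CPM in WT and 14.3 ± 1.10 CPM in myb110 (log2 change 0.22 ± 0.11, edgeR adjusted p = 0.157). PHO1-1 and PHO1-3 had log2 changes of -0.13 ± 0.23 and -0.04 ± 0.12 (edgeR adjusted p = 0.736 and 0.837).

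NLA proteins combine the domain with a RING ubiquitin ligase part and mark phosphate transporters for breakdown. The 2 genes of this type both passed, in opposite directions, where 22.6% of all tested genes passed. Os03g0650900 had 250, 318 and 284 counts in WT and 331, 352 and 489 counts in myb110. It rose from 17.1 ± 0.254 to 24.7 ± 1.19 CPM, a log2 change of 0.53 ± 0.09 (edgeR adjusted p = 1.08e-05). Os07g0673200 had 198, 289 and 227 counts in WT and 138, 163 and 147 counts in myb110. It fell from 14.2 ± 1.21 to 9.65 ± 1.80 CPM, a log2 change of -0.58 ± 0.13 (edgeR adjusted p = 0.000631). Neither pair of ranges overlapped in CPM, and neither call was lost in any of the 11 alternatives.

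A pair of further genes was looked at after their values were seen. Os04g0573000, which the blade table also calls an SPX-MFS protein, fell from 6.04 ± 0.886 to 4.28 ± 0.288 CPM (log2 change -0.50 ± 0.18, edgeR adjusted p = 0.0358). That call was lost with DESeq2 (0.106), with limma on FPKM (0.118) and without WT replicate 2 (0.218), WT replicate 3 (0.0556), myb110 replicate 1 (0.0987) or myb110 replicate 3 (0.103). Os12g0595000, described as a protein with SPX and EXS domains, had 59.2 ± 0.257 CPM in WT and 64.4 ± 1.35 CPM in myb110. It did not pass (log2 change 0.12 ± 0.05, edgeR adjusted p = 0.0826). At 29.9 FPKM in WT its level was above that of every one of the 9 members.

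Genes annotated as MYB factors of the PHR type, to which PHR2 belongs, and genes for enzymes of inositol pyrophosphate synthesis came next. Both lists were made from the deposited descriptions, and whether SPX proteins bind each listed factor was not checked. Of 8 genes for MYB factors of the PHR type, 0 passed edgeR's threshold, beside 22.6% of all tested genes. Among the 8, 1 had an unadjusted p below 0.05, and their median log2 change was 0.01. PHR2 itself had 66.5 CPM in WT and 66.1 CPM in myb110 (log2 change -0.01 ± 0.05). PHL2 (Os09g0299000), the most abundant of them, had 120 and 124 CPM (0.04 ± 0.04, edgeR adjusted p = 0.478).

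Of 9 genes for inositol phosphate and pyrophosphate kinases 8 were tested. Their median log2 change was 0.06, 1 rose and 1 fell, which is 25.0% called beside 22.6% of all tested genes. VIP2 (Os03g0689100), of the kinase family that makes the most phosphorylated inositol pyrophosphate, fell from 61.8 ± 1.51 to 52.3 ± 1.01 CPM (log2 change -0.24 ± 0.05, edgeR adjusted p = 0.000612). With limma on FPKM that call was lost (adjusted p = 0.289). The gene length implied by its counts and FPKM was 2.61 to 2.75 kb in the WT libraries and 2.36 to 2.46 kb in the myb110 libraries. ITPK6 (Os09g0518700), an inositol phosphate kinase, rose from 51.1 ± 2.45 to 56.8 ± 0.613 CPM (0.15 ± 0.05, edgeR adjusted p = 0.0389). Its call was lost in 7 of 11 alternatives: DESeq2, limma on FPKM, and without WT replicate 2, WT replicate 3 or any 1 of the 3 myb110 replicates (adjusted p up to 0.175).

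Genes that carry out phosphate uptake, release and saving followed, again as lists made from the deposited descriptions. Of 19 phosphate transporter genes 10 were tested. Their median log2 change was 0.01, 1 rose and 2 fell, which is 30% called beside 22.6% of all tested genes. PHT2-1, a transporter of the chloroplast envelope, fell from 3.90 ± 0.526 to 1.64 ± 0.516 CPM (log2 change -1.27 ± 0.26, edgeR adjusted p = 0.000287). The genes for chlorophyll a-b binding proteins were lower in the same libraries, and their part in it was not tested. PHT4;4 fell by 0.34 ± 0.10 on the log2 scale (edgeR adjusted p = 0.00838; 0.559 with limma on FPKM, 0.0751 without WT replicate 2). PHT4;7 rose by 0.41 ± 0.13 with overlapping ranges (edgeR adjusted p = 0.0190). The PHT4;7 call was lost in 7 of 11 alternatives, among them those without WT replicate 1, WT replicate 3, myb110 replicate 1 or myb110 replicate 3 (adjusted p up to 0.133).

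Purple acid phosphatases free phosphate from organic compounds. Of 17 such genes 11 were tested. Their median log2 change was 0.12, 3 rose and 0 fell, which is 27.3% called beside 22.6% of all tested genes. PAP3 (Os03g0238600) rose from 70.2 ± 3.20 to 82.3 ± 3.09 CPM (log2 change 0.23 ± 0.05, edgeR adjusted p = 0.000422). PAP1 (Os12g0576700) rose from 1.59 ± 0.568 to 3.18 ± 0.170 CPM (1.00 ± 0.28, edgeR adjusted p = 0.00764), a call lost without WT replicate 3 (adjusted p = 0.0707). PAP16 was the third.

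Under phosphate shortage plants replace phospholipids with galactolipids and sulpholipids and take apart the phosphodiesters set free. The list made for this from the descriptions held 22 genes, of which 19 were tested. Whether each of them acts in this remodelling was not checked. Their median log2 change was -0.02, 3 rose and 2 fell, which is 26.3% called beside 22.6% of all tested genes. GDPD1 (Os02g0514500), a glycerophosphodiester phosphodiesterase, rose from 26.7 ± 1.17 to 40.5 ± 2.55 CPM (log2 change 0.60 ± 0.07, edgeR adjusted p = 2.46e-08), and no alternative removed that call. MGD3, a galactolipid synthase, rose by 0.17 ± 0.05 (edgeR adjusted p = 0.0111), a call lost without WT replicate 1 (0.0563), without myb110 replicate 3 (0.168) and with limma on FPKM (0.118).

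The genes that fell in this list are both named GDPDL3 and are annotated as glycerophosphodiester phosphodiesterases. Os04g0472300 fell by 0.14 ± 0.04 (edgeR adjusted p = 0.00393; 0.0530 without myb110 replicate 2, 0.0539 with limma on FPKM). Os02g0588500 fell by 0.10 ± 0.03 (edgeR adjusted p = 0.0102; 0.0533 without WT replicate 2, 0.0520 without myb110 replicate 3, 0.0609 with limma on FPKM).

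Over these 7 lists together, 61 of 80 genes were tested, 9 rose and 6 fell. The 15 calls were 24.6% of the tested genes, close to the 22.6% of all tested genes, and 36.1% of the tested genes had separate genotypes, the same as over all tested genes. With limma on FPKM there were 8 calls.

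**Figure D4:**
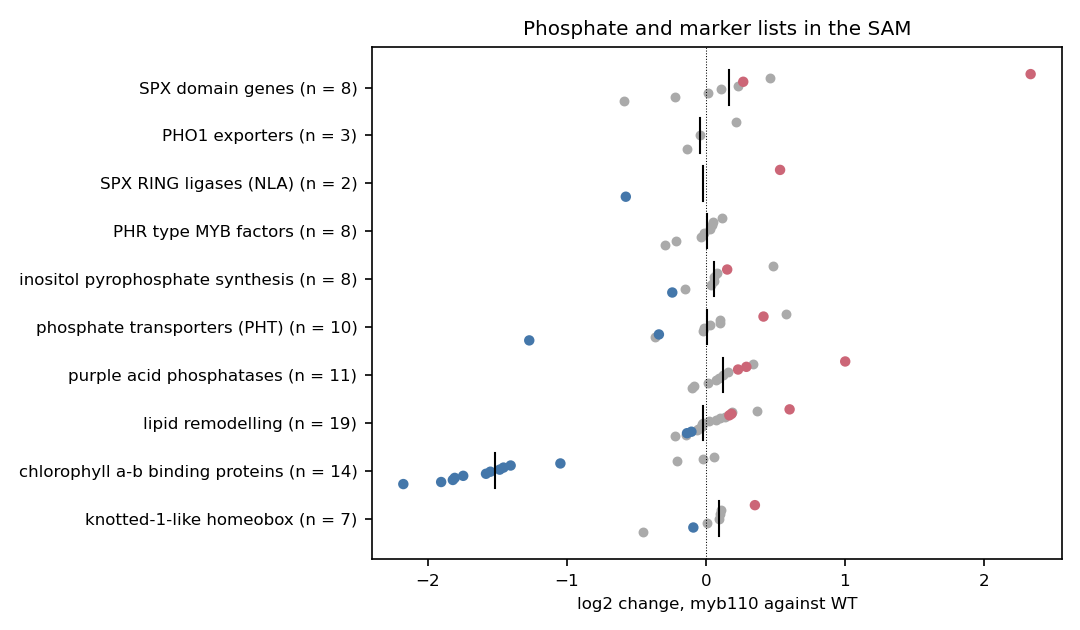
Log2 change of myb110 against WT for each tested gene of the SPX domain genes and of the lists of related genes, with black lines at the medians; red genes rose, blue fell and grey did not pass in edgeR. The medians of the phosphate lists lie between -0.04 and 0.17, and that of the chlorophyll a-b binding protein genes at -1.52.

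The genes whose pattern over the 6 libraries came closest to that of SPX5, the member with the lowest adjusted p, were CYP94C1, CRK10 and DGK5. Closeness was the root mean square difference of log2 CPM after centring each gene on its mean, 0.209, 0.219 and 0.244. CYP94C1 (Os11g0151400), a cytochrome P450 of a family that in Arabidopsis inactivates the hormone jasmonoyl-isoleucine, had 13, 11 and 12 counts in WT and 44, 47 and 62 in myb110. CRK10 (Os07g0541000), a cysteine-rich receptor-like kinase, had 21, 17 and 12 counts in WT and 43, 55 and 52 in myb110. DGK5 (Os04g0634700), a diacylglycerol kinase, had 117, 103 and 87 counts in WT and 417, 423 and 572 in myb110. All 3 share with SPX5 a low WT group and a separate myb110 group, which the measure of closeness itself selects.

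On the chromosomes, the 20 tested genes nearest to each SPX gene by locus number, 10 on each side, held between 2 and 8 genes that passed edgeR's threshold. Over all tested genes 22.6% passed it. SPX5 had the most, 8 of 20, and its immediate tested neighbours, Os03g0405900 and Os03g0406200, had log2 changes of -0.03 and 0.09 (edgeR adjusted p = 0.867 and 0.121). Of those 8, 1 changed at least 2-fold: Os03g0405200, 4 places from SPX5, with 646 counts over the WT libraries and 1 count over the myb110 libraries. The neighbours of Os02g0678200, SPX4, SPX3 and Os09g0521800 also held 1 such gene each. Over all tested genes 3.63% passed and changed at least 2-fold. On 1 side only, the immediate tested neighbour passed for SPX1 (Os06g0604000, log2 change 0.45, edgeR adjusted p = 0.0226) and SPX2 (Os02g0202250, 0.13, 0.0133). Both immediate neighbours of SPX4 passed, Os03g0826800 (1.23, edgeR adjusted p = 0.0148) and Os03g0827600 (0.19, 0.0237). No immediate neighbour of the other members passed. The counts were not stated to use strand, so reads of overlapping or antisense genes cannot be told apart at any of these loci.

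**Figure D5:**
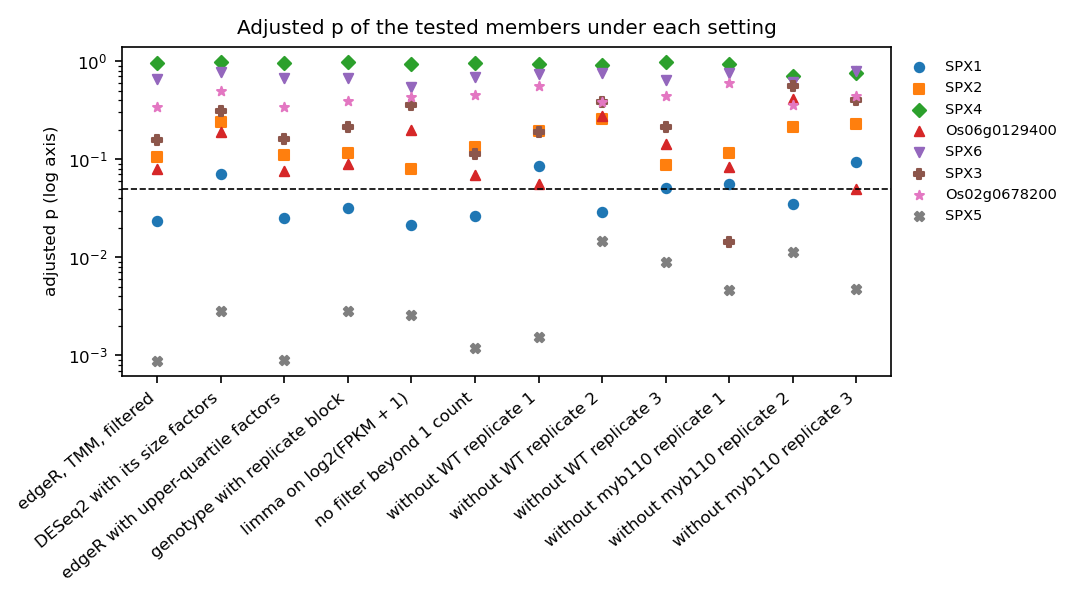
Adjusted p of the 8 tested SPX domain genes (log axis) in the edgeR test and under 11 other settings; the dashed line is the threshold of 0.05. SPX5 stays below the line in every setting, SPX1 crosses it in 5, and SPX3 and Os06g0129400 pass it in 1 setting each.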

How the data were processed

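The submitters' processing notes name fastp, a read cleaning tool, while aligner, counting tool, genome build and annotation were not given in the sources used here. Per gene and library, the deposited meristem table holds an estimated count and an FPKM value, per the file headers. Between 12.3% and 13.2% of the estimated counts in a library were not whole, and which lengths and fragments entered FPKM is not stated. Genotype and number in a column's name gave its sample, and the tissue rests on the table's name. Columns of per-sample values left out numbered 24, among them all 9 libraries of the blade table, beside 6 labelled blade samples.

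The estimated counts, rounded to whole numbers, entered the tests. Genes were kept by filterByExpr (minimum count 10), libraries scaled by TMM, and the genotypes compared by the quasi-likelihood test of edgeR with a robust dispersion (edgeR 4.0.16, R 4.3.3), with Benjamini-Hochberg adjustment over 23167 genes and a threshold of 0.05. Positive log2 changes are higher in myb110, and errors beside them are standard errors. Errors of CPM and FPKM are SD. CPM use the totals of the kept genes and TMM factors. Genes were said to rise or fall only past the threshold. Alternatives were DESeq2 1.42.0, upper-quartile factors, no filter, a replicate block, limma 3.58.1 on log2(FPKM + 1), and leaving out each library. The main fit, upper-quartile factors, the replicate block, DESeq2 and limma were run on simulated counts with the same dispersion for every gene. Changes were planted only in genes of higher level than SPX5 and Os02g0678200, so those runs do not cover such low genes. The fits without the filter or without a library were not simulated. Within a genotype no libraries agreed within counting noise (chi-square per gene 2.15 to 2.63). Intervals on ratios of counts cover counting error only, for reads without molecular tags.

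The members and gene lists were chosen with earlier results of these data known. Genes were named by a rule: every member, then in each list up to 2 rises and 2 falls by lowest adjusted p, or the most abundant tested gene where none passed, then the 3 closest patterns. PHR2, PHO1-1, PHO1-3, PAP16, Os04g0573000, Os12g0595000 and neighbouring loci were named after their values were seen. Sequences and coordinates were not used here.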

Additional observations from a re-analysis of the deposited data

How the results depend on the processing

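Among the 8 tested SPX domain genes, edgeR called 2, and so did upper-quartile factors, no filter and limma on FPKM, against 1 with DESeq2. Leaving out each library in turn gave 1 to 2 calls. Among the values of single SPX genes under the alternatives, 79 kept direction and side of the threshold, 5 lost a call (all SPX1) and 2 gained one (SPX3 and Os06g0129400). The log2 change of SPX4, never called, ran from -0.0785 without myb110 replicate 3 to 0.0877 without myb110 replicate 2, and was -0.01 without WT replicate 3; fewer samples entered these fits. For the other phosphate lists together, 15 calls became 11 with DESeq2, 8 with limma on FPKM and 10 to 13 when a library was left out; beyond the fewer samples, the cause was not tested. Among the values of the other named genes 222 kept direction and side, 42 lost a call and 0 reversed. The labels do not say that a replicate number marks a shared batch. Correlations of deviations were -0.0469, -0.0407 and 0.0107 between same-numbered libraries and -0.0183 to 0.0590 between differently numbered ones. With 3 libraries per genotype these values cannot show whether the numbers mark a shared batch. With the replicate block, 2 SPX domain genes and 14 genes of the other lists were called, and the PHT4;7 call was lost (edgeR adjusted p = 0.0677). Alternatives for the blade, the tissues, their interaction and a promoter motif were not run, since those comparisons were not made. SPX5 and Os02g0678200, at about 1 CPM or less, rest on few counts, and 3 pools per genotype limit the rest.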
